A study of Homo sapiens with 9 samples.

Results

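The genes described here are 10 feedback regulators and outputs of the ERK MAP kinase pathway: the Sprouty genes SPRY1, SPRY2 and SPRY4, the Sprouty-related genes SPRED1 and SPRED2, the MAP kinase phosphatase genes DUSP4, DUSP5 and DUSP6, and the PEA3 transcription factor genes ETV4 and ETV5. They were chosen by name with earlier results of these data known, so their counts beside the share of all genes are descriptions. Every probe set that the platform's annotation ties to 1 of these symbols was taken. This gave 24 of the 54675 probe sets on the array. The members are 10 of the 19775 genes that have such a probe set. Of these 24, 18 had enough signal to be tested and represent 9 genes. The 3 DUSP4 probe sets, 2 of SPRED2 and 1 of ETV5 lay below the filter and are given as values only. The cells on all 9 arrays were PANC-1, a long-established line derived from a human pancreatic carcinoma and treated in multiwell plates. In the first group cells received the solvent DMSO (3 arrays, with no exposure time in the labels), and in the other groups they were exposed to 5 uM of BRD7552, a small molecule. That exposure lasted 6 h in one group and 72 h in the other, with 3 arrays each. With a single DMSO group, effects of BRD7552 and of time in culture cannot be fully told apart in any comparison. The submitters chose the dose as the lowest with full induction of PDX1, a pancreatic homeobox gene. Whether the replicates of a group came from separate cultures is not in the labels. The p-values therefore reflect the spread among these samples alone, which may be technical.

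Growth factor receptors activate RAS, RAF, MEK and ERK in turn, and active ERK raises the transcription of genes that damp the same cascade. Sprouty and SPRED proteins act at the membrane, between receptor, RAS and RAF. Dual-specificity phosphatases remove the activating phosphates from MAP kinases, and the PEA3 factors ETV4 and ETV5 carry part of the transcriptional output. Transcripts of these genes are widely read as a sign of ERK pathway output, in pancreatic carcinoma cells among others.

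The median signal of an array ran from 16.2 to 18.8 on a linear scale. Precision is limited by having 3 arrays in each group. The 72 h arrays resembled each other less than those of the other groups. The mean Spearman correlation of an array with the others of its group was 0.958 to 0.971 at 72 h, against 0.985 to 0.990 in the other groups. Upper quartiles were 97.5 and 99.7 on 72 h replicates 2 and 3, against 112 to 119 on the rest. The ratio of 3' to 5' signal of the ACTB control was 2.07 to 2.21 at 72 h, against 1.74 to 2.05 elsewhere. That of the GAPDH control overlapped, at 1.34 to 1.39 at 72 h and 1.27 to 1.35 elsewhere. As a check of the cell type, 6 of 6 ductal epithelial markers lay above the filter, as did 0 of 4 leukocyte, 0 of 4 endocrine, 1 of 4 endothelial, 1 of 3 acinar and 2 of 5 fibroblast markers, the last being COL1A1 and DCN. The summed signal of the ductal markers was 32588.5 to 33326 in DMSO, 32836 to 32863 at 6 h and 25831 to 27666 at 72 h, where 5 of the 6 fell. Summed fibroblast markers were 632 to 715 in DMSO, 588 to 672 at 6 h and 517 to 637 at 72 h. COL1A1 made up most of that sum, with a mean of 605 in DMSO. These differences accompany every 72 h value below, and their part in it was not tested. The arrays hold a single cell line, and whether marker signal fell in all of its cells or in some cannot be told here.

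By their brightest probe sets, the feedback genes moved in both directions after 72 h of BRD7552. SPRY4 and DUSP5 fell, by 41.8% and 32.8%, while SPRY1, SPRED2 and ETV5 rose by much smaller amounts, 1.25-fold, 1.14-fold and 1.17-fold. SPRY2, SPRED1, DUSP6 and ETV4 were not called by their brightest probe set. A probe set was called at an adjusted p below 0.05 over all tested probe sets (limma, Benjamini-Hochberg), and each gene is described by its brightest probe set, the one of highest mean over the arrays. At 6 h limma called 0 of the 18 member probe sets, and 0 had an unadjusted p under 0.05. In that comparison 0.194% of all tested probe sets and 0.308% of genes were called. At 72 h against DMSO 7 of 18 were called, 4 higher and 3 lower, against 21.7% of all tested probe sets, 6.07% higher and 15.7% lower. By gene, 3 rose and 2 fell of 9, where 24.6% of genes were called in the whole table, 7.78% higher and 16.8% lower. The fall of SPRY4 and of DUSP5 was called under each alternative tried, whereas without DMSO replicate 1 the count of member probe sets was 3, all lower. With all probe sets of each gene averaged, the rises of SPRY1, SPRED2 and ETV5 were not called, and SPRED1 was called lower. Of the SPRED1 probe sets only the dimmest was called by itself. Among all called probe sets 72.1% were lower, a share that became 56.0% after quantile normalization, 54.6% after cyclic loess and 65.0% with arrays centred on their medians. Between the times, 72 h against 6 h, 4 of 18 were called, 1 higher and 3 lower, against 19.3% of all tested probe sets, 4.93% higher and 14.3% lower. By gene 1 rose and 2 fell of 9, where 21.7% of genes were called. The median log2 change of the 9 genes was -0.070 at 6 h and -0.12 at 72 h, beside -0.00095 and -0.062 over all genes. Both comparisons with DMSO share the same 3 DMSO arrays.

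**Figure D1:**
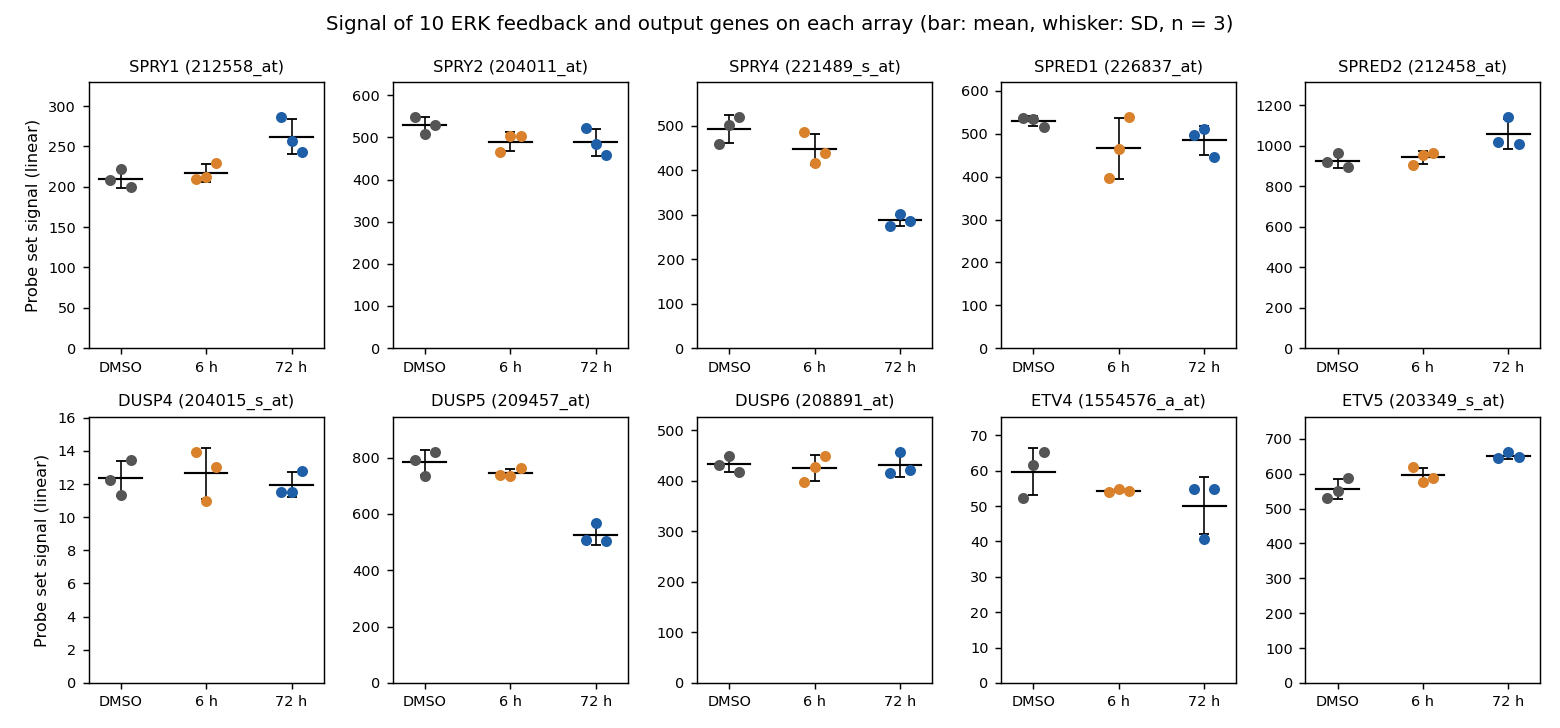
Signal of the brightest probe set of each of the 10 genes (vertical axis, linear scale from 0) on the 3 arrays of each group (horizontal axis); points are arrays, bars the group mean and whiskers the SD. SPRY4 and DUSP5 at 72 h lie below every other array, SPRY1, SPRED2 and ETV5 at 72 h above every other array, and every DUSP4 array is below the filter level of 17.8.

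The Sprouty genes did not move together. SPRY4, an inhibitor of receptor signalling to RAS, has 1 probe set, which read 459.5, 501 and 520.2 in DMSO, 486, 416 and 439.6 at 6 h and 275, 302 and 285 at 72 h. All 72 h arrays were lower than all others, while the 6 h arrays overlapped DMSO. The mean signal went from 494 ± 31.0 to 287 ± 13.5 (SD, n = 3 arrays), a log2 change of -0.78 ± 0.074 (SE, limma adjusted p = 6.04e-06). At 6 h the log2 change was -0.14 ± 0.074 (limma adjusted p = 1.00), with a 95% interval of 0.811 to 1.01 for the ratio to DMSO. From 6 h to 72 h SPRY4 fell by 0.64 on the log2 scale (SE 0.074, limma adjusted p = 5.3e-05). No second probe set of SPRY4 was on hand to set beside it.

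SPRY1, another Sprouty inhibitor, went the other way. Its brighter probe set read 208, 222 and 199 in DMSO, 209.7, 212 and 229.8 at 6 h and 286, 257 and 243 at 72 h. The 72 h arrays lay above all others. The log2 change at 72 h was 0.32 ± 0.085 (SE, n = 3 arrays per group, limma adjusted p = 0.0149), and between the times it was 0.27 ± 0.085 (limma adjusted p = 0.0377). The rise was not shared by the other SPRY1 probe set, which read 87.0 to 107 in DMSO and 74.8 to 113 at 72 h, a log2 change of -0.022 ± 0.14. Averaging both probe sets ended the call at 72 h (0.15, limma adjusted p = 0.271). It also ended without DMSO replicate 1 (0.31, limma adjusted p = 0.0553) and without DMSO replicate 3 (0.28, limma adjusted p = 0.0782). The call between the times held under 7 of 21 alternatives.

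SPRY2, the Sprouty protein most studied as a brake on RAS signalling, read 548, 508 and 529.9 in DMSO, 465, 502 and 502 at 6 h and 522, 485 and 458 at 72 h. The 6 h arrays lay just below the DMSO arrays, and the 72 h arrays overlapped them. Its log2 change was -0.11 ± 0.064 at 6 h and -0.12 ± 0.064 at 72 h, neither called (limma adjusted p = 1.00 and 0.224). The 95% interval at 72 h was 0.838 to 1.01 for the ratio to DMSO, so a fall as large as that of SPRY4 lies outside it.

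The upstream sequences of SPRY4 and SPRY1 are printed because these paralogs changed in opposite directions at 72 h by their brightest probe sets. The other SPRY1 probe set did not share its rise. They are the 250 bases before 1 annotated start of each gene, from RefSeq (GRCh38.p14), 5' to 3' on the strand of the gene. SPRY4 lies on the minus strand (chr5:142324248-142324497) and SPRY1 on the plus strand (chr4:123398136-123398385, the start of the second of its 2 listed promoters). The other SPRY1 promoter (upstream part chr4:123396545-123396794) had no match to the motifs searched and is not printed. Capitals mark the core CCGGAAG of an ETS factor site, which PEA3 factors share.
SPRY4: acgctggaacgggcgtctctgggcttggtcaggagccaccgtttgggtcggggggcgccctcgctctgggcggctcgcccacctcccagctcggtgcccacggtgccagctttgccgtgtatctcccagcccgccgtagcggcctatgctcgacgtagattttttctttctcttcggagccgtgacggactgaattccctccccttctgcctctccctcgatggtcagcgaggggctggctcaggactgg
SPRY1: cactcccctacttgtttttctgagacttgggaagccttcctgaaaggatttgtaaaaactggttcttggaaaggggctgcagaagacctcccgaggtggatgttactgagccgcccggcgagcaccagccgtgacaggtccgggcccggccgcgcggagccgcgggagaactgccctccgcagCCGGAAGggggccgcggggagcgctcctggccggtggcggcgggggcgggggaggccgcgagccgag
RefSeq promoters were at hand for 6 of the 10 genes, 10 windows in all, each reaching 50 bases past the start as well. Searched on both strands, the core CCGGAAG was found in 1 of the 10, the one printed for SPRY1, from 67 to 61 bases before the start. It occurs in 10.3% of the 35116 promoters of the table. The longer ETS site ACCGGAAGT, which contains that core, was found in 0 of the 10 (1.00% of all promoters), the cAMP response element TGACGTCA in 0 (1.85%) and the amino acid response element TGATGNAAT in 0 (0.991%). The AP-1 site TGANTCA occurred in 1 of the 10, a SPRED2 window with 2 matches (7.71%). A match is a run of letters, not a bound site.

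SPRED1 and SPRED2 encode membrane-bound relatives of Sprouty that hold back RAF activation. SPRED2 read 921, 965 and 896 in DMSO, 906, 957 and 965 at 6 h and 1018, 1143 and 1009.8 at 72 h. The 72 h arrays were the highest, and 6 h overlapped DMSO. The log2 change at 72 h was 0.19 ± 0.056 (SE, n = 3 arrays per group, limma adjusted p = 0.0295), and between the times 0.16 ± 0.056, which was not called (limma adjusted p = 0.0578). The 72 h call held under 14 of 21 alternatives. It ended with the 3 probe sets averaged (log2 0.015, limma adjusted p = 0.919), 2 of which read between 7.46 and 11.7 on all arrays and were not tested. The other alternatives that ended it were median centring (limma adjusted p = 0.124), no mean-variance trend (0.103), no filter (0.0601), and leaving out DMSO replicate 1 (0.0894), DMSO replicate 3 (0.126) or 72 h replicate 2 (0.134).

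SPRED1 gave different readings from different probe sets. The brightest read 536, 535 and 517 in DMSO, 396, 464 and 539 at 6 h and 497, 511 and 446 at 72 h. The 6 h arrays were spread widely across the DMSO range and below it, while the 72 h arrays lay just under DMSO. Its log2 change was -0.19 ± 0.092 at 6 h and -0.13 ± 0.092 at 72 h (limma adjusted p = 1.00 and 0.355). A second probe set stood at -0.13 and -0.091, also not called. The third was dim, with 27.8, 32.3 and 33.0 in DMSO, 27.8, 35.9 and 31.9 at 6 h and 21.9, 11.1 and 16.5 at 72 h. All its 72 h arrays were the lowest, and 2 of them lay under the filter level of 17.8. This probe set fell by 0.96 on the log2 scale at 72 h (SE 0.21, limma adjusted p = 0.0043) and by 0.996 between the times (SE 0.21, limma adjusted p = 0.0041). Without 72 h replicate 2 its 72 h value was -0.70, and with a pseudocount of 16 it was -0.55. Of the 3 SPRED1 probe sets, 1 was called, the dimmest. With the 3 averaged, the log2 change was -0.39 (limma adjusted p = 0.0091).

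The MAP kinase phosphatases also differed from one another. DUSP5, a nuclear phosphatase that acts on ERK, has 1 probe set and read 792, 734 and 821 in DMSO, 738, 734 and 762 at 6 h and 507, 568 and 504 at 72 h. Every 72 h array lay below every other array, and 6 h overlapped DMSO. Mean signal was 782 ± 44.0 in DMSO and 526 ± 36.2 at 72 h (SD, n = 3 arrays), a log2 change of -0.57 ± 0.061 (SE, limma adjusted p = 1.75e-05). At 6 h it stood at -0.070 ± 0.061 (limma adjusted p = 1.00), and between the times it fell by 0.50 on the log2 scale (SE 0.061, limma adjusted p = 8.3e-05).

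DUSP6, the cytoplasmic ERK phosphatase and a usual readout of ERK activity, was not called at either time. The brightest of its 3 probe sets read 431, 449 and 417 in DMSO, 398, 426 and 449 at 6 h and 415, 457 and 421 at 72 h, and the groups overlapped throughout. The log2 change was -0.028 ± 0.067 at 6 h and -0.0056 ± 0.067 at 72 h (limma adjusted p = 1.00 and 0.967). Its 95% interval at 72 h was 0.902 to 1.10 for the ratio to DMSO, while that of the dimmest DUSP6 probe set was wider and lower, 0.768 to 1.04. The other DUSP6 probe sets stood at -0.13 and 0.0016 at 6 h and at 0.024 and -0.16 at 72 h, with 0 of the 3 called. DUSP4, a nuclear phosphatase of ERK and other MAP kinases, was dim on every array. Its brightest probe set read 12.3, 11.3 and 13.5 in DMSO, 13.95, 10.96 and 13.02 at 6 h and 11.5, 11.5 and 12.8 at 72 h, and no reading of its 3 probe sets passed 14.7. No order among these groups can be read at that level.

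**Figure D2:**
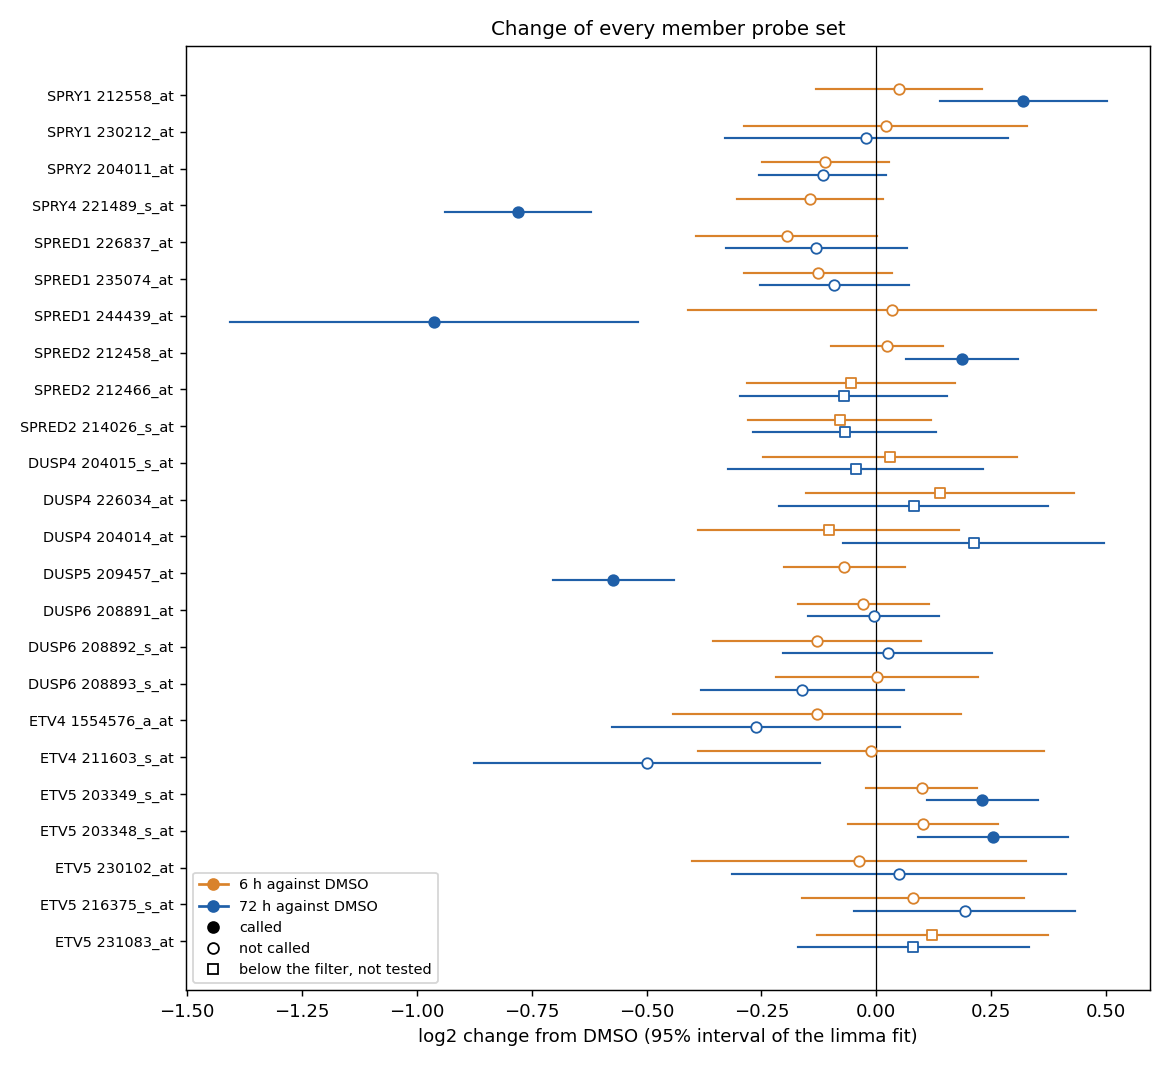
Log2 change from DMSO (horizontal axis) with its 95% limma interval for all 24 probe sets of the 10 genes (vertical axis), at 6 h and 72 h; filled points are called and squares were not tested. At 6 h 0 of 18 tested probe sets are filled, and at 72 h 7 of 18, with SPRY4 at -0.78, DUSP5 at -0.57 and the dim SPRED1 probe set at -0.96 farthest from 0.

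The PEA3 factors ETV4 and ETV5 are transcription factors of the ETS family whose genes respond to ERK. ETV5 read 531, 551 and 587 in DMSO, 619.8, 578 and 589 at 6 h and 644, 663 and 649.5 at 72 h by its brightest probe set. The 72 h arrays were close together above all others, while the 6 h arrays overlapped DMSO. The log2 change was 0.098 ± 0.056 at 6 h (limma adjusted p = 1.00) and 0.23 ± 0.056 at 72 h (SE, n = 3 arrays per group, limma adjusted p = 0.00907). A second ETV5 probe set rose too, with 383, 409 and 424 in DMSO and 529.9, 473 and 448 at 72 h (log2 0.25 ± 0.076, limma adjusted p = 0.0284). The other tested ETV5 probe sets stood at 0.049 and 0.19, not called, so the 4 tested probe sets all had a positive value at 72 h. The change between the times, 0.13 ± 0.056, was not called (limma adjusted p = 0.117). The 72 h call ended without DMSO replicate 1 (0.198, limma adjusted p = 0.0539) and with all 5 probe sets averaged (0.16, limma adjusted p = 0.160).

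ETV4 was less bright, at 52.3, 61.6 and 65.4 in DMSO, 54.1, 54.7 and 54.3 at 6 h and 54.7, 40.8 and 54.7 at 72 h. Its 72 h arrays overlapped DMSO, with replicate 2 the lowest. The log2 change was -0.26 ± 0.15 at 72 h (limma adjusted p = 0.232). The other ETV4 probe set read 51.3, 56.6 and 62.5 in DMSO and 50.04, 30.8 and 41.9 at 72 h, with no overlap between these groups, and its log2 change of -0.50 ± 0.18 missed the threshold (limma adjusted p = 0.0572). ETV4 therefore had negative values by both probe sets and passed by neither, while ETV5 rose.

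Across the member probe sets, 2 of the 18 tested had no overlap between 6 h and DMSO arrays, where 11.3% of all tested probe sets had none. At 72 h 9 of 18 had none, against 33.8% of all tested probe sets. Of the 24 member probe sets, 14 had the very same value on at least 2 arrays, such as 734 for DUSP5 in DMSO replicate 2 and 6 h replicate 2, and in 59.2% of all probe sets. The effect of such ties on the spread was not tested.

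Lists of other genes of the same pathway were set beside the 10, each gene by its brightest probe set. They were chosen with earlier results of these data known, so counts set beside the share of all genes are descriptions. Of the closest relatives, SPRED3 stood at -0.34 (limma adjusted p = 0.102) and ETV1, the third PEA3 factor, at -0.34 (limma adjusted p = 0.113) at 72 h, and SPRY3 was below the filter. Of 7 other MAP kinase phosphatases, 2 fell at 72 h and 5 were not called, a share near the 24.6% of all genes called. DUSP7, an ERK phosphatase of the cytoplasm, had a log2 change of -1.09 ± 0.11 (limma adjusted p = 1.04e-05). DUSP2, an inducible nuclear phosphatase, had one of -0.79 ± 0.12 (limma adjusted p = 0.000485), and at 6 h its value was -0.56 ± 0.12, which was not called (limma adjusted p = 0.140). DUSP1, the stress-inducible phosphatase, stood at 0.041 and was not called. The list's median log2 change was -0.11 at 72 h, beside -0.062 over all genes.

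Other transcriptional outputs of ERK were mostly lower at 72 h. Of 13 tested, 9 fell, 0 rose and 4 were not called, where 16.8% of all tested genes fell. This list was chosen with earlier results of these data known, so its count is a description and no test of ERK output. PLAUR, the urokinase receptor gene, fell by 1.26 in log2 units (SE 0.16), LIF, a cytokine of the IL6 family, by 0.61 (SE 0.11), the phosphate transporter gene SLC20A1 by 0.47 (SE 0.042) and HMGA2, a chromatin architectural factor, by 0.45 (SE 0.045). The list's median was -0.31 at 72 h and -0.066 at 6 h. At 6 h limma called 0 of the 13, with 6 at an unadjusted p under 0.05, of which 4 had a negative and 2 a positive value. The share of all tested genes under that p was not worked out, so the 6 cannot be read as an excess. The 72 h count ran from 7 to 9 under the alternatives tried, and was 8 without 72 h replicate 2. Between the times the count was also 9, with 0 higher, where 15.2% of genes fell, and it ran from 6 to 9 under the alternatives. UPP1, uridine phosphorylase, was among the 4 largest there at -0.43. Among the 9 tested feedback genes, 3 rose and 2 fell by the brightest probe set. None of the rises was called with the probe sets of each gene averaged, an alternative not applied to the output genes. For SPRED2 and ETV5 that average takes in probe sets below the filter. The difference between these lists was not tested.

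Upstream of ERK, and among other ETS transcription factors, the called genes were split. The counts at 72 h are to be read against 24.6% of all tested genes called, 7.78% higher and 16.8% lower, and the lists are short. Of 7 tested growth factor ligands, HBEGF, which activates the EGF receptor, had a log2 change of -0.81 at 72 h (SE 0.074, limma adjusted p = 4.61e-06) and EREG, epiregulin, of -0.38 (SE 0.092). Both were lower, and 5 were not called. Of 9 receptor tyrosine kinases 3 rose and 2 fell: FGFR3 rose 1.43-fold (log2 0.52 ± 0.092), EGFR 1.30-fold (0.37 ± 0.070) and IGF1R 1.22-fold (0.29 ± 0.089), while ERBB2 and MET fell, with log2 changes of -0.33 ± 0.11 and -0.24 ± 0.041. In the cascade from adaptors to ERK, 11 of 18 listed genes were tested and the rest are not analysed here or lay below the filter. The adaptor gene GRB2 rose 1.21-fold and the exchange factor gene SOS2 1.19-fold, while the scaffold gene KSR1 fell by 0.37 and the kinase gene MAP2K2, which encodes MEK2, by 0.18 on the log2 scale. The other 7 were not called. Of 5 tested negative regulators of RAS and RAF, PEBP1, the RAF kinase inhibitor protein, rose 1.18-fold and RASAL2, a RAS GTPase-activating protein, fell by 0.26. Of 18 other ETS factors 1 rose and 4 fell, a share near that of all genes. ELF1 rose 1.35-fold, and ETV6, ETS2 and ELF4 fell by 0.50, 0.41 and 0.39 on the log2 scale. At 6 h limma called 0 genes in each of these lists. The number at an unadjusted p under 0.05 was 2 of 7 phosphatases, 1 of 7 ligands, 1 of 9 receptors, 0 of 11 cascade genes, 0 of 5 negative regulators, 2 of 18 ETS factors and 0 of 2 close relatives. These too stand without the share of all tested genes under that p.

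**Figure D3:**
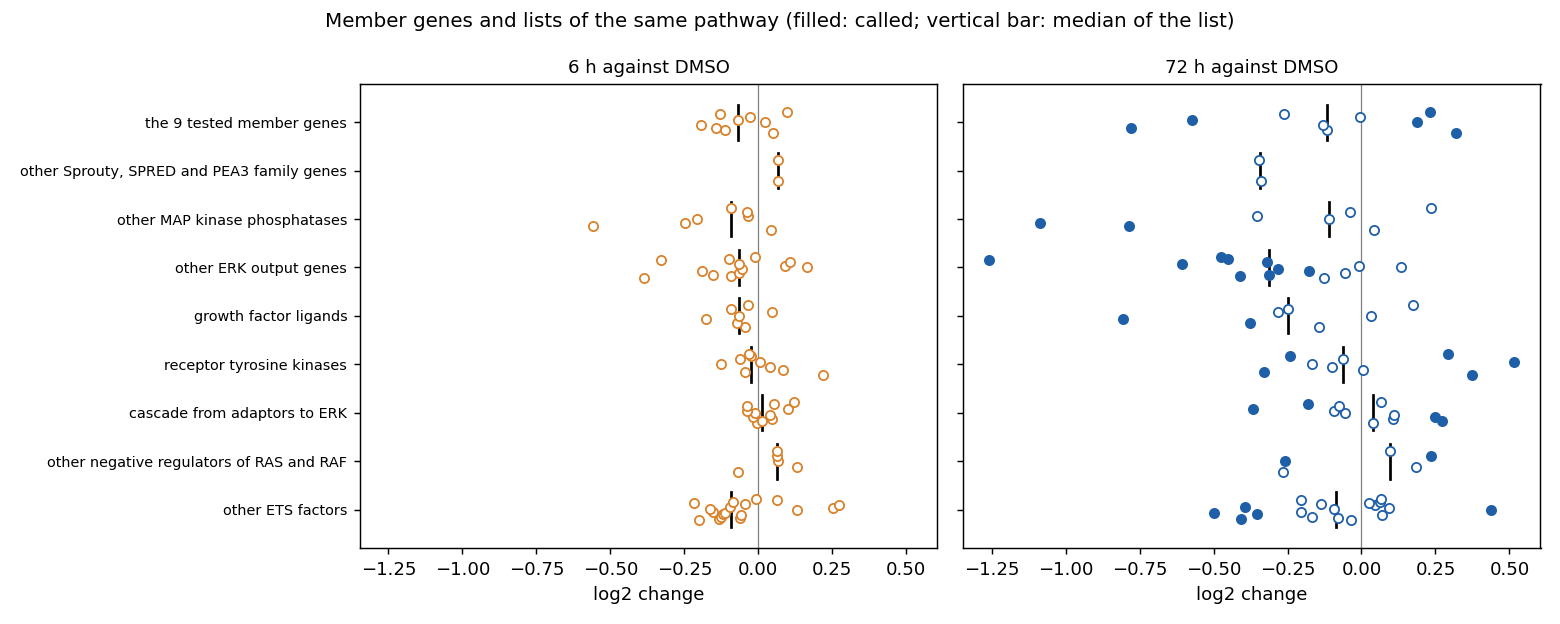
Log2 change (horizontal axis) of the 9 tested genes of the feedback set and of 8 lists of the same pathway (rows), at 6 h (left) and 72 h (right) against DMSO; each point is a gene by its brightest probe set, filled where called, and the vertical bar is the median of the row. At 72 h the other ERK output genes have 9 of 13 points filled, all below 0, with a median of -0.31.

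The gene with the largest called change, SPRY4, was used to look for genes of like pattern. Over the 9 arrays and 12677 other tested genes, Pearson correlation of log2 signal with SPRY4 was highest for ELF4 (0.994), COLGALT1 (0.992), HMGA2 (0.990), SLC46A3 (0.988) and AKIRIN2 (0.986). All share the same 9 arrays, and the group difference at 72 h makes up most of each pattern. Deviations from the group means also correlated with those of SPRY4. There r was 0.916 for ELF4, 0.918 for COLGALT1, 0.828 for HMGA2, 0.743 for SLC46A3 and 0.837 for AKIRIN2. These genes were picked by their correlation over the same arrays, so a high r of the deviations is no separate sign of likeness. Their log2 changes at 72 h were -0.39 for ELF4, an ETS factor, -0.26 for COLGALT1, a collagen galactosyltransferase, -0.45 for HMGA2, -0.73 for SLC46A3 and -0.40 for AKIRIN2. Among the 9 tested feedback genes, SPRY4 and DUSP5 had the most similar pattern (r = 0.963 over 9 arrays). That similarity lay between the groups more than within them, since deviations from the group means of the same 2 genes had r = 0.307. SPRY4 and SPRY1 had r = -0.891 over the 9 arrays. For SPRY4 and ETV5 r was -0.773 over the 9 arrays, yet 0.917 for deviations from the group means. These correlations are descriptions.

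**Figure D4:**
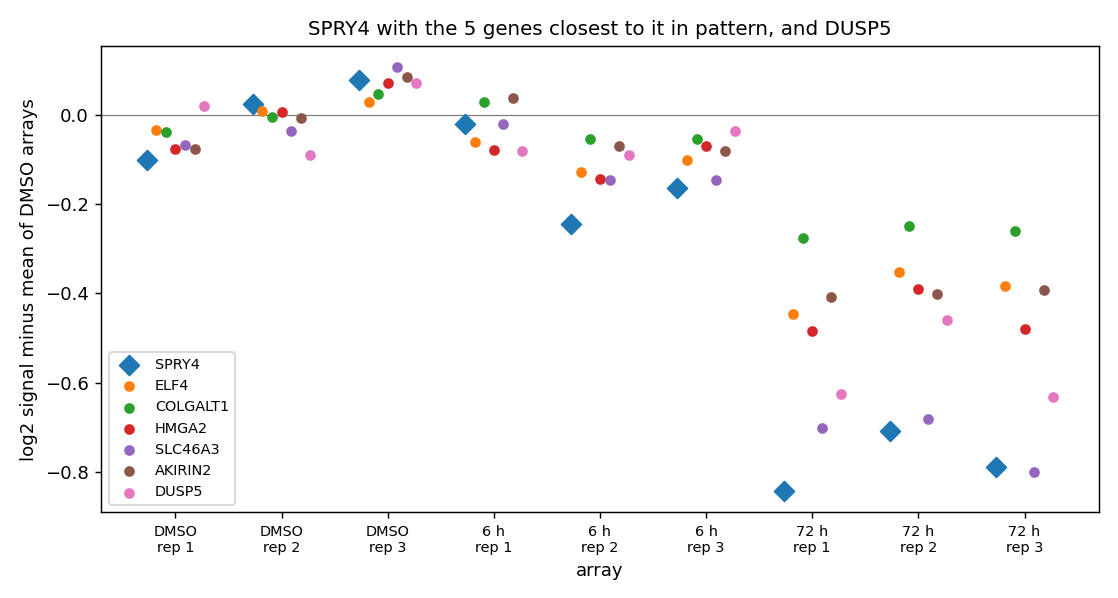
Log2 signal minus the mean of the DMSO arrays (vertical axis) on each of the 9 arrays (horizontal axis) for SPRY4 (diamonds), the 5 genes closest to it in pattern and DUSP5; points of 1 array are set side by side. All 7 genes are below 0 on every 72 h array, and SPRY4 is at -0.78 there on average.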

How the data were processed

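Expression of PANC-1 cells was measured on Affymetrix arrays, 1 per sample. Intensity per probe set, on a linear scale from 4.54 to 25052, came as the authors deposited it. The submitters' processing notes name MAS5. Exactly equal values on at least 2 arrays, in 59.2% of probe sets, are unusual for MAS5 output, so how these values were made is uncertain. The version of MAS5 and the scaling target were not given in the sources used here. Groups and replicate numbers came from the labels, which give no batch.

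Values were used as deposited, without further normalization or pseudocount, and log2 transformed. Symbols came from the platform annotation, updated by gene identifier: 1 symbol for 41097 probe sets (41043 matched to a current record), more than 1 for 1801, and none for 11777. Control probe sets (62) and those with several symbols were left out. Probe sets with a mean at or above the median of all (log2 4.15, linear 17.8) were tested, which kept 23248. This fit on probe sets differs from one probe set per gene, which was an alternative, so that all probe sets of a gene were adjusted together. Limma 3.58.1 in R 4.3.3 (lmFit, eBayes with a mean-variance trend) was fitted to all 9 arrays, with 6 residual degrees of freedom, for 3 comparisons. Errors are SE of that fit unless given as SD, and values of untested probe sets came from the fit without the filter. Correlations and motif counts are descriptions.

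The members and lists were chosen with earlier results of these data known. Named were all 10 genes, up to 4 called genes per list and comparison with the largest change, every gene of lists of 3, and the 5 genes most correlated with the member of largest called change. DUSP1 was named after its value was seen. Same-numbered arrays were not paired: the correlation of their deviations ran from -0.262 to 0.195.

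The fit was tested on simulated data, 200 changed among 23248 probe sets with the spread of the real groups. Changes of 0.25, 0.5 and 1 log2 units were called in 16.4%, 46.3% and 86.4% of cases for 6 h against DMSO, with 4 false of 103 calls. For 72 h against DMSO it was 16.4%, 46.3% and 83.3%, with 31 false of 128 calls, and between the times 19.4%, 47.8% and 92.4%, with 60 false of 166. The share of false calls was thus above 5% in both simulated comparisons with 72 h arrays. Far more probe sets were called in the real 72 h against DMSO comparison (5051) than were changed there (200). The simulated shares therefore need not hold for the real calls. Alternatives changed the probe set per gene, filter, normalization, pseudocount, arrays in the fit, trend, array weights, replicate block and the arrays left out.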

Additional observations from a re-analysis of the deposited data

Results flagged for a closer look

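Signal differed between 6 h and 72 h of BRD7552, by limma's test of 72 h against 6 h, for 4 probe sets of the feedback genes. Without a DMSO group for each time, compound and time in culture cannot be told apart in this difference. The log2 difference was -0.64 for SPRY4, -0.50 for DUSP5, 0.27 for SPRY1 and -0.996 for the dim SPRED1 probe set. Each of the 4 was called at 72 h against DMSO and not at 6 h. The SPRY1 difference was called under 7 of 21 alternatives, the SPRY4 and DUSP5 differences under 21 of 21.

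Among the genes of the pathway lists named here, the same test passed for those that follow, and 4 further ERK output genes that passed it are not listed. Among phosphatases and outputs the log2 difference was -0.84 for DUSP7, -0.54 for LIF, -0.43 for UPP1, -0.93 for PLAUR, -0.35 for HMGA2 and -0.46 for SLC20A1. Among ligands and receptors it was -0.30 for EREG, -0.63 for HBEGF, 0.51 for FGFR3, -0.22 for MET and 0.32 for IGF1R. In the cascade it was 0.26 for GRB2, 0.27 for SOS2, -0.47 for KSR1 and -0.23 for MAP2K2, and for regulators of RAS and RAF -0.32 for RASAL2 and 0.17 for PEBP1. Among ETS factors it was -0.27 for ETS2, -0.39 for ETV6, 0.31 for ELF1 and -0.30 for ELF4.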

How the results depend on the processing

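The SPRY4 and DUSP5 falls at 72 h kept direction and call under 21 of 21 alternatives, at -0.83 to -0.72 and -0.63 to -0.53 on the log2 scale. Of the 684 values of members under an alternative, 623 were rated the same, 26 lost a call, 7 gained one and 28 changed sign. For tested genes, the same meant an unchanged direction and side of the threshold. For the untested DUSP4 it meant a value within the SD of its arrays, whatever the sign. DUSP4 at 6 h, 0.030 in the main fit, was -0.027 with array weights and -0.045 to 0.13 with 1 array left out. Of the 28 changes of sign, only the value of SPRED1 between the times with its probe sets averaged was called. The cause of the changes was not tested.

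The count over all probe sets at 6 h (45) was 77 with quantile normalization, 77 with cyclic loess, 24 with median centring, 12 without the mean-variance trend, 183 with array weights and 26 to 60 with 1 array left out. At 72 h (5051) it was 3111 with median centring and 3100 to 7074 with 1 array left out, and between the times (4476) 2659 and 2919 to 6778. Member probe sets called at 72 h (7) were 3 to 7 with 1 array left out, and between the times (4) they were 7 with cyclic loess. At 6 h the list of other ERK outputs had 1 lower gene with array weights.

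Signs of tested members changed as follows. DUSP6 at 6 h was 0.0065 with array weights and -0.070 to 0.017 with 1 array left out. DUSP6 at 72 h was 0.034 with quantile normalization, 0.053 with cyclic loess, 0.032 with median centring, 0.0056 with array weights and -0.049 to 0.022 with 1 array left out, and between the times -0.00086 with array weights and -0.023 to 0.064 with 1 left out. SPRED2 at 6 h was -0.037 with its probe sets averaged and -0.00093 to 0.052 with 1 array left out. SPRED1 between the times was -0.012 with array weights, -0.30 averaged (limma adjusted p = 0.0403) and -0.048 to 0.17 with 1 array left out, and its dim probe set at 6 h -0.057 to 0.13. SPRY2 between the times was 0.039 with quantile normalization, 0.050 with cyclic loess, 0.023 with median centring and -0.055 to 0.039 with 1 array left out. ETV4 between the times was 0.034 with quantile normalization, 0.013 with cyclic loess and -0.20 to 0.0093 with 1 array left out.

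With the replicate block, counts over all probe sets were 43, 4475 and 3933 and over members 0, 7 and 3. The pairing by number was not borne out, and among members the block ended the SPRY1 call between the times (0.27, limma adjusted p = 0.0687) and no other. Recomputing the list of ERK outputs and the dim SPRED1 probe set under each alternative was decided after the data had been seen.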
